A study of Saccharomyces cerevisiae with 8 samples.

Results

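Loss of XRN1 was examined in cells whose capping enzyme had not been depleted: 1 ceg1-AA/xrn1D library was compared with 2 ceg1-AA libraries, all from cultures given DMSO, the solvent control. These 3 libraries are part of a series of 7 libraries of Saccharomyces cerevisiae, and all counts files of the 2 DMSO groups were used. Of 6600 open reading frames listed, 6572 are nuclear, and 5856 of those passed a filter on low counts and were tested. Each gene therefore has 2 log2 ratios, the xrn1D library against ceg1-AA replicate 1 and against ceg1-AA replicate 2.

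Every strain is MATalpha with the tor1-1 allele, the disruption fpr1::NAT, RPL13A joined to FKBP12 (written RPL13AxFKB12::TRP) and the tagged capping enzyme gene CEG1-FRB::HIS. The ceg1-AA/xrn1D strain carries in addition KAN::XRN1, per the label of replicate 1. The labels list a second ceg1-AA/xrn1D DMSO sample, which was not analysed here and whose genotype text reads KAN::XRN3. Cells grew in YPD at 30 °C and received DMSO, or rapamycin at 1 µg/mL, for 45 min, per the labels. In this anchor-away system rapamycin draws the tagged Ceg1 out of the nucleus, so in DMSO the enzyme stays in place. The strains compared are therefore a tagged parent and its xrn1 derivative, neither of them a wild type, and the labels do not say whether replicates came from separate cultures. P-values then measure only the spread between these samples, which may be technical.

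Xrn1 is the main cytoplasmic exonuclease that digests RNA from the 5′ end. Most yeast mRNAs lose their poly(A) tail, are decapped by Dcp2 with Dcp1, and are then digested by Xrn1, and transcripts recognised by nonsense-mediated decay end in the same way. Its nuclear relative Rat1 trims ribosomal and small nucleolar RNAs and acts in transcription termination. Cells without Xrn1 are viable and are known to grow slowly.

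The genotype label was checked first. XRN1 (YGL173C, assembly R64, chrVII:175527-180113, minus strand) was counted 794 times in replicate 1 and 632 times in replicate 2 of ceg1-AA in DMSO, and 0 times in the xrn1D DMSO library. A count of 0 allows up to 3 counts, which puts XRN1 at least 723-fold lower than the mean of the ceg1-AA libraries. XRN1 was also at 0 in both xrn1D rapamycin libraries, replicate 2 with its KAN::XRN3 label included. FPR1 had 0 counts in all 7 libraries. CEG1 did not differ past the threshold, at 53.9 and 48.2 CPM (counts scaled to library size) in ceg1-AA and 49.7 CPM in xrn1D (log2 difference -0.04 ± 0.20 SE, edgeR adjusted p = 0.882). Among the flanking genes on chromosome VII, ROK1 fell by 0.89 on the log2 scale (adjusted p = 0.00265), while BUD13 and NUP49, on either side of XRN1, did not pass the threshold, at -0.96 (adjusted p = 0.191) and -0.38 (adjusted p = 0.132).

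The ceg1-AA DMSO libraries held 1618638 and 1292180 counts in total, and the xrn1D library held 3050579. Mitochondrially encoded reading frames set the strains apart and were left out of the scaling and the tests. They held 1.41% and 1.13% of counts in ceg1-AA and 0.199% in xrn1D. Every ceg1-AA library gave 10 counts or more to 20 mitochondrial frames, and for 16 of these no xrn1D library exceeded 3 counts. The labels do not mention this difference. It moves with every strain difference below, and its part in them was not tested. The ceg1-AA DMSO libraries also differed from each other more than other replicates did. They were at least 2-fold apart for 383 genes, against 166 in ceg1-AA rapamycin and 37 in xrn1D rapamycin. Of the 383, 287 were higher in replicate 2. Such counts depend on depth, and the xrn1D rapamycin libraries held 2990340 and 3385761 counts. The chi-square per degree of freedom between replicates, which also depends on depth, was 8.51 in ceg1-AA DMSO. It was 2.39 in ceg1-AA rapamycin and 7.58 in xrn1D rapamycin, so on that measure the xrn1D pair was close to the DMSO pair.

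In DMSO, 1156 of the 5856 genes were higher in xrn1D (19.7%) and 1152 were lower (19.7%) in edgeR's quasi-likelihood test at a Benjamini-Hochberg adjusted p of 0.05. The lone xrn1D library was assumed to vary like the other groups of the 7-library fit, so no replicate of it enters these calls. All 2308 genes called had the same sign in both pairs. Genes at least 2-fold apart in both pairs, a description with no test, numbered 450 higher (7.68%) and 397 lower (6.78%), and 21 of the 450 were not called by the test. The median log2 ratio over all genes was 0.06 against replicate 1 and 0.05 against replicate 2. Without ceg1-AA DMSO replicate 1 or without replicate 2, 380 of the 1156 higher calls and 238 of the 1152 lower calls were lost in at least one of the fits.

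The balance of higher and lower calls is set by the scaling. Libraries were scaled by TMM, which takes most genes as unchanged. With total nuclear counts alone the median gene lay 0.58 and 0.56 higher in xrn1D, and 2635 genes were called higher and 437 lower (85.8% higher, against 50.1% with TMM). Each list described below with a direction keeps that direction relative to the median gene under 4 other scalings. For the scalings of counts this is fixed in advance, since a library factor shifts all genes by nearly the same amount. Only log2(TPM + 1) could have given another direction relative to the median gene. In bulk samples fewer cells of a type and less RNA per cell cannot be told apart.

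**Figure D1:**
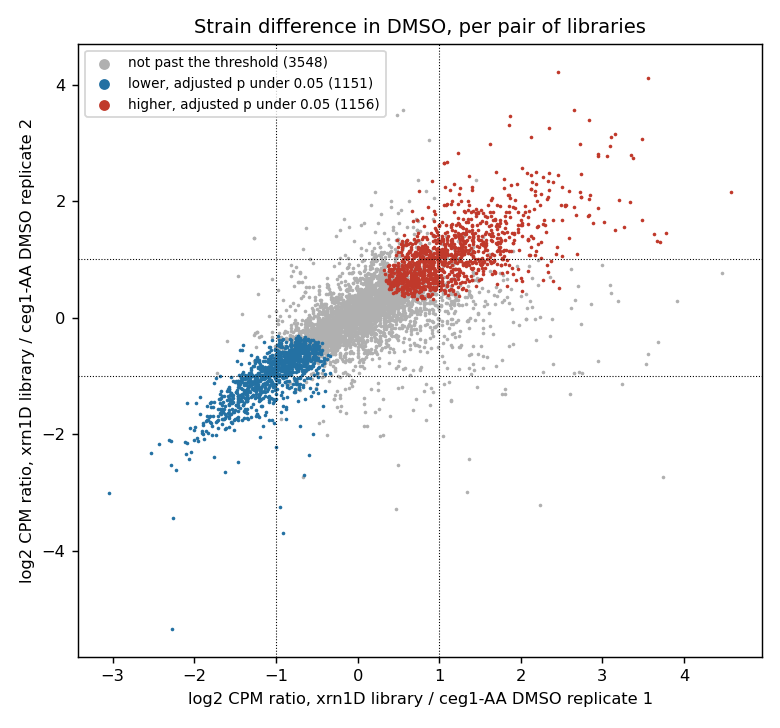
Strain difference of each tested gene except XRN1 in DMSO: log2 CPM ratio of the xrn1D library to ceg1-AA replicate 1 (x axis) and replicate 2 (y axis), with dotted lines at 2-fold. Called genes (red, 1156 higher; blue, lower) lie in the quadrants where both ratios share a sign, and a grey tail at the lower right holds genes for which the ceg1-AA libraries differ.

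Among genes with a mean count of at least 50 over the 3 DMSO libraries, those that rose most in xrn1D, by the smaller of their ratios, were NCE103, FMP45, EDC1, MDH2, YOR062C, HXT5, IME2, YPR078C, CLB6, TEN1, RPL22B and ISU1. NCE103 encodes carbonic anhydrase. Its level was 58.9 and 40.0 CPM in ceg1-AA and 705 CPM in xrn1D, with log2 ratios of 3.56 and 4.11 (fitted 3.82 ± 0.48 SE, adjusted p = 0.000423). EDC1, an activator of decapping, was at 12.4 and 8.20 CPM in ceg1-AA and 95.1 CPM in xrn1D (3.17 ± 0.29, adjusted p = 0.000179). MDH2, the cytosolic malate dehydrogenase of gluconeogenesis, was at 23.2 and 25.6 CPM against 185 CPM (2.92 ± 0.19, adjusted p = 2.92e-05). For these genes the xrn1D value lay far above both ceg1-AA values, which the choice by the smaller ratio requires. The log2 gap of ceg1-AA replicate 2 to replicate 1 was 0.14 for MDH2 and -0.55 for both NCE103 and EDC1. HXT5, a hexose transporter expressed in slow growth, was at 9.95 and 8.20 CPM against 71.4 CPM. The meiotic kinase gene IME2 was at 8.29 and 10.3 CPM against 60.8 CPM. The S-phase cyclin gene CLB6 was at 10.8 and 11.3 CPM against 60.5 CPM, and ISU1, a scaffold for iron-sulphur clusters, was at 120 and 112 CPM against 552 CPM. The 12 genes were chosen for these ratios, so their size is a description.

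Under the same limit on the mean count, the genes that fell most after XRN1 were TPM1, TDH1, YGL088W, FPR3, RPL36B, YPL250W-A, RNR2, RPS23B, YLR154W-E, RPL35B and SBP1. TPM1 encodes tropomyosin of the actin cables. It was at 527 and 618 CPM in ceg1-AA and 107 CPM in xrn1D, with ratios of -2.29 and -2.52 (fitted -2.42 ± 0.22, adjusted p = 0.000179). FPR3, a nucleolar prolyl isomerase, was at 309 and 312 CPM against 70.5 CPM (-2.14 ± 0.18, adjusted p = 0.00014). RNR2, the small subunit of ribonucleotide reductase, was at 981 and 1160 CPM against 228 CPM (-2.23 ± 0.26, adjusted p = 0.000345). In all of these the xrn1D value lay below both ceg1-AA values, which the choice by the smaller ratio requires. TDH1, an isoform of glyceraldehyde-3-phosphate dehydrogenase, was at 541 and 4570 CPM against 112 CPM, so that its ratios, -2.27 and -5.34, differ with the ceg1-AA library. YGL088W overlaps the small nucleolar RNA gene SNR10 on the same strand, and its counts cannot be told apart from those of SNR10. YPL250W-A and YLR154W-E have no entry in the reference, so whether they overlap other genes was not checked. YLR154W-E also varied between the ceg1-AA rapamycin libraries, at 935 and 229 CPM. RPL36B, RPS23B and RPL35B each have a close paralog, as do TDH1 and RPL22B, and the split of reads between such copies is uncertain.

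**Figure D2:**
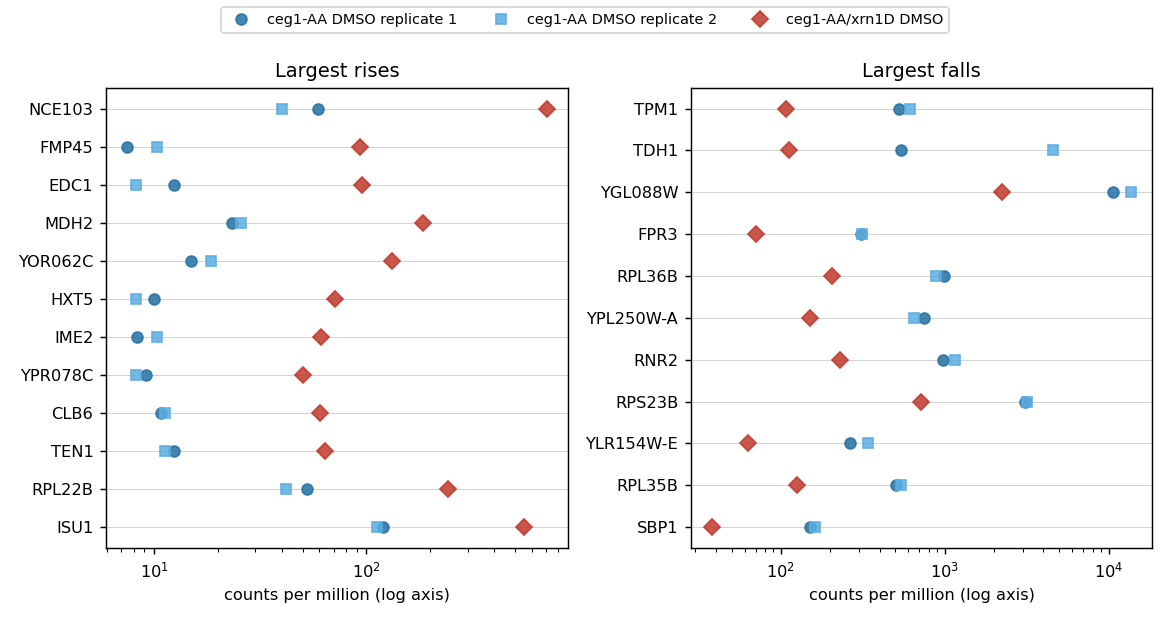
CPM (log axis) of the largest rises and falls in each DMSO library, XRN1 left out because it was at 0 in xrn1D. Each point is 1 library; in every row the red xrn1D point lies to one side of both blue ceg1-AA points, and for TDH1 the blue points are at 541 and 4570 CPM.

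The decay machinery itself moved in both directions. Of 22 genes of decapping and 5′ to 3′ decay, 5 were higher and 5 lower, close to the 19.7% of all genes in each direction, with medians of -0.10 and 0.10. Besides EDC1, the higher genes were EDC2, its paralog (1.43 ± 0.25, adjusted p = 0.00172), the helicase gene DHH1 (1.91 ± 0.18, adjusted p = 0.000179), the decapping exonuclease gene DXO1 (0.94 ± 0.19, adjusted p = 0.00306) and the decapping enzyme gene DCP2 (0.49 ± 0.17, adjusted p = 0.0373). DHH1 was at 125 and 125 CPM in ceg1-AA and 469 CPM in xrn1D. Besides XRN1, the lower genes were RAT1 (-0.77 ± 0.17, adjusted p = 0.00622), DCP1 (-0.70 ± 0.21, adjusted p = 0.0246), LSM3 (-1.45 ± 0.33, adjusted p = 0.00603) and SCD6 (-1.16 ± 0.30, adjusted p = 0.0114). DCP2 passed the threshold in neither fit that left out a ceg1-AA DMSO library (adjusted p = 0.0811 without replicate 1 and 0.0518 without replicate 2), and DCP1 did not without replicate 2 (0.0568). RAT1, the nuclear relative of XRN1, was at 328 and 286 CPM in ceg1-AA and 181 CPM in xrn1D.

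The genes that precede or parallel Xrn1 were called at shares near the 19.7% of all genes in each direction for deadenylation, and for the lower genes of the exosome. Of 13 deadenylation genes, 3 were higher, among them the deadenylase gene POP2 (0.83 ± 0.16, adjusted p = 0.00303), and 3 were lower, among them PAB1, the poly(A)-binding protein gene (-1.08 ± 0.19, adjusted p = 0.00173). The exosome and its Ski helpers degrade RNA from the 3′ end. Of 18 such genes 4 were lower and 1 was higher. MTR4, the nuclear exosome helicase gene, was at 635 and 516 CPM in ceg1-AA and 257 CPM in xrn1D. Of 10 genes of capping and cap binding, 4 were lower and none was higher; the eIF4G gene TIF4631 was at 865 and 720 CPM against 316 CPM (-1.32 ± 0.20, adjusted p = 0.000865).

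Transcripts described as targets of nonsense-mediated decay were mostly higher. Of 11 such genes, 7 were higher and none was lower, with medians of 0.94 and 1.48. The 7 were ADR1, CPA1, EST1, EST2, EST3, STN1 and TEN1, of which the EST genes, STN1 and TEN1 act at telomeres. TEN1 was at 12.4 and 11.3 CPM in ceg1-AA and 63.8 CPM in xrn1D (2.42 ± 0.28, adjusted p = 0.000326). EST2, the catalytic subunit of telomerase, was at 24.0 and 19.5 CPM against 67.4 CPM (1.62 ± 0.24, adjusted p = 0.000742). CPA1, an arginine-regulated gene with an upstream open reading frame, was at 93.7 and 99.4 CPM against 280 CPM (1.54 ± 0.17, adjusted p = 0.000294). The other 4, ALR1, CTF13, PPR1 and SPT10, had fitted differences from -0.08 for SPT10 to 0.61 for PPR1 (adjusted p = 0.744 and 0.0614). Of the 5 genes of the pathway's own factors, NMD4 and EBS1 were higher (1.47 ± 0.20, adjusted p = 0.000528, and 0.56 ± 0.17, adjusted p = 0.0228) and NAM7, the gene of the helicase Upf1, was at 556 and 449 CPM against 564 CPM. EST1 and EBS1 did not pass without ceg1-AA replicate 1 (adjusted p = 0.0634 and 0.0654), nor EST3 without replicate 2 (0.0615).

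Genes for making ribosomes formed a large group of lower genes. Of 79 genes for large-subunit proteins of the cytosolic ribosome, 71 were lower and 2 higher, with medians of -1.24 and -1.05, and of 56 small-subunit genes 49 were lower and 1 higher, with medians of -1.32 and -1.30. Together they took 16.9% and 16.8% of nuclear counts in ceg1-AA and 10.2% in xrn1D. RPS23B was at 3070 and 3190 CPM against 718 CPM (-2.12 ± 0.22, adjusted p = 0.000207), and RPS2 at 6580 and 6440 CPM against 2380 CPM. The higher members include RPL22B, at 52.2 and 42.0 CPM against 242 CPM (2.35 ± 0.22, adjusted p = 0.000179), while its paralog RPL22A was at 908 and 896 CPM against 408 CPM. Of 101 ribosome biogenesis genes, 78 were lower and 2 higher, with medians of -0.98 and -0.82, and of 8 RNA polymerase I genes 5 were lower. BMS1, the GTPase gene of small-subunit assembly, was at 739 and 609 CPM against 193 CPM (-1.80 ± 0.20, adjusted p = 0.000274). Mitochondrial ribosomal protein genes, which are also nuclear, went the other way. Of 70, 26 were higher and 1 was lower, with medians of 0.39 and 0.60.

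The upstream letters of these genes were read from assembly R64, in the 500 bases before the start codon on both strands. The PAC element, a short sequence long known upstream of ribosome biogenesis genes, was searched as GCGATGAG, and the pleiotropic drug response element, bound by the transcription factors Pdr1 and Pdr3, as TCCGCGGA. Below are the stretches around them for the called list members with a match and the largest difference, 4 per list, in the gene's direction, with the element in capitals; BMS1, KRR1, NOP13 and LOC1 are lower ribosome biogenesis genes and the others are higher drug resistance genes.
BMS1, chrXVI:143261-143290, minus strand: aaattttcaagGCGATGAGctgaagtgaag
KRR1, chrIII:23464-23493, minus strand: taattcttttaGCGATGAGatatgaaaatt
NOP13, chrXIV:308695-308724, minus strand: aagaaaaaattGCGATGAGcatagatgata
LOC1, chrVI:148978-149007, plus strand: ttgaagtaacgGCGATGAGgtgaagttttt
CIS1, chrXII:822885-822942, minus strand: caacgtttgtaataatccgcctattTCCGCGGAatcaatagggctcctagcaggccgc
PDR5, chrXV:619502-619559, plus strand: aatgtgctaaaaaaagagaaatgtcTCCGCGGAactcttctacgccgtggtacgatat
PDR15, chrIV:1278806-1278863, plus strand: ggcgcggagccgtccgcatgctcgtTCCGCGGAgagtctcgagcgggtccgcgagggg
IPT1, chrIV:591765-591822, minus strand: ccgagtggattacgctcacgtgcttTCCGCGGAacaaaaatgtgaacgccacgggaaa

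The PAC letters stood upstream of 56 of the 101 ribosome biogenesis genes (55.4%) and of 4.92% of the 5896 upstream windows read. Of the 284 tested genes with a PAC match, 44.4% were lower and 8.80% higher, against 18.5% lower and 21.1% higher among genes without one. The RRPE core, searched as AAAATTTT, stood upstream of 80.2% of the ribosome biogenesis genes and of 12.6% of all windows, and 38.7% of the tested genes with it were lower and 12.4% higher, against 17.0% and 21.7% of genes without it. A match is a description of letters in a window, and windows of neighbouring genes can overlap. The genes with PAC or RRPE letters include ribosome biogenesis genes, lower as a list, and shares without them were not computed.

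**Figure D3:**
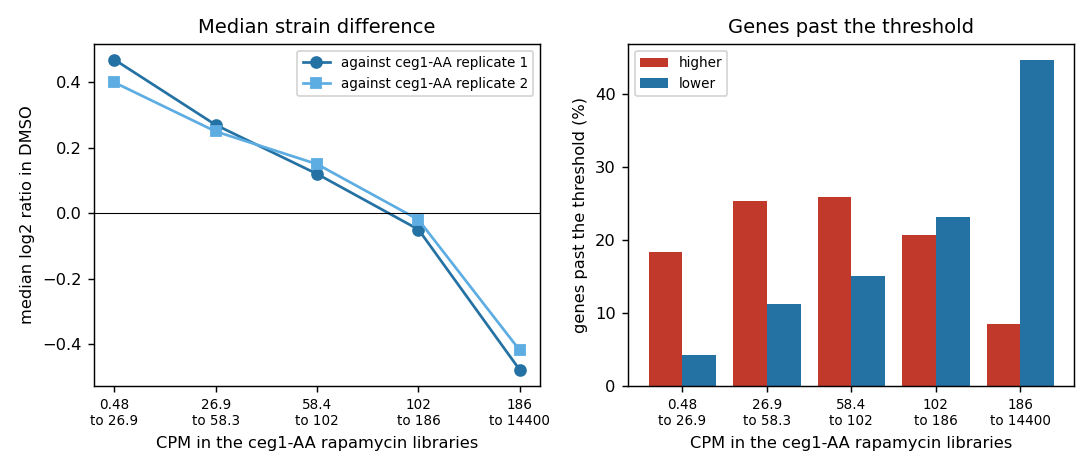
Left, median log2 ratio of the xrn1D library to each ceg1-AA DMSO library; right, percent of genes past the threshold in each direction; both for 5 equal groups of genes ordered by mean CPM in the ceg1-AA rapamycin libraries, which do not enter the DMSO ratios but share the fit behind the calls. The medians go from 0.47 and 0.40 in the lowest group to -0.48 and -0.42 in the highest.

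The difference followed the level of a gene in ceg1-AA. Genes were divided into 5 equal groups by CPM, not corrected for length, in the ceg1-AA rapamycin libraries, which do not enter the DMSO ratios. The median ratios were 0.47 and 0.40 in the lowest group, 0.27 and 0.25 in the next, and -0.48 and -0.42 in the highest. The filter kept a gene with enough counts in any 1 library. The lowest group, from 0.48 CPM, can therefore hold genes tested only because another library was high. Ordering by ceg1-AA alone also places genes low in that strain in the low groups. The part of both in the ratios was not tested. In the highest group 44.7% of genes were lower and 8.45% higher, and in the lowest 4.27% were lower and 18.3% higher. The 185 genes with reading frames over 4000 bases had medians of -0.31 and -0.27. The authors' bias factor for such long frames had a median of 0.525 in the xrn1D library and of 0.875 and 0.811 in the ceg1-AA libraries, and the part of that factor in the lower values was not tested. Medians over the 16 chromosomes ranged from -0.03 to 0.15 against replicate 1 and from -0.03 to 0.17 against replicate 2.

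Metabolic genes of growth on glucose were lower. Of 24 glycolysis and fermentation genes, 13 were lower and 1 higher, with medians of -0.79 and -1.05. TDH3, the main glyceraldehyde-3-phosphate dehydrogenase gene, was at 22200 and 23100 CPM in ceg1-AA and 9000 CPM in xrn1D (-1.33 ± 0.28, adjusted p = 0.00386). The higher gene was ALD4, a mitochondrial aldehyde dehydrogenase gene, at 77.9 and 105 CPM against 259 CPM. Of 18 cytosolic chaperone genes, 10 were lower and 2 higher, and the lower ones include the ribosome-associated Hsp70 gene SSB1 at 9980 and 8620 CPM against 3180 CPM (-1.55 ± 0.28, adjusted p = 0.00196). Of 51 amino acid biosynthesis genes outside the arginine pathway, 29 were lower and 2 higher, with medians of -0.65 and -0.57. BAT1, the mitochondrial branched-chain aminotransferase gene, fell by 1.63 ± 0.23 on the log2 scale (adjusted p = 0.000688), and HIS3, which rose by 1.56 ± 0.24 (adjusted p = 0.000895), is also a marker gene of such strains. Of 23 ergosterol genes, 13 were lower and 1 higher; 6 were lower without ceg1-AA replicate 1 and 16 without replicate 2. ERG6, the sterol methyltransferase gene, was at 741 and 735 CPM against 232 CPM.

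Several smaller pathways were higher. The retrograde response is the set of nuclear genes that cells raise when mitochondria fail. Of 13 genes listed for the response, which are not all targets of it, 9 were higher and none was lower, with medians of 0.91 and 0.79. Its targets in citrate metabolism include IDH1, at 215 and 260 CPM in ceg1-AA and 629 CPM in xrn1D (1.41 ± 0.19, adjusted p = 0.000479), ACO1, at 2180 and 1990 CPM against 4090 CPM, and CIT2, at 381 and 459 CPM against 796 CPM. DLD3, another target, was at 1000 and 1130 CPM against 738 CPM (adjusted p = 0.067). Among the 9 higher genes was MKS1, a negative regulator of the response (0.55 ± 0.17, edgeR adjusted p = 0.0273). These genes moved with the mitochondrial counts given above, whose part was not tested.

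Pleiotropic drug resistance genes, mostly membrane pumps under Pdr1 and Pdr3, were higher in 9 of 19 and lower in none, with medians of 0.58 and 0.68. PDR5, the main drug pump gene, was at 4170 and 2270 CPM against 9840 CPM (1.61 ± 0.41, adjusted p = 0.0101), and PDR15, another pump gene, at 178 and 200 CPM against 436 CPM (1.21 ± 0.21, adjusted p = 0.00156). CIS1, also among the 9, had 1 and 0 counts in ceg1-AA and 34 in xrn1D. With the floor of 3 counts its rise is only bounded at 3.33-fold or more, so the size of its fitted difference (4.32 ± 1.13) is uncertain. The filter may have kept CIS1 only because xrn1D libraries were high, which was not tested. The regulator genes PDR1 and PDR3 were themselves higher (0.87 ± 0.17, adjusted p = 0.00323, and 0.49 ± 0.16, adjusted p = 0.0362), whereas the pump genes SNQ2 and YOR1 had differences of -0.18 and 0.12 (adjusted p = 0.62 and 0.717). Without ceg1-AA replicate 2, PDR3 and IPT1 did not pass (0.102 and 0.0635). The drug response element printed above stood upstream of 6 of the 19 genes and of 0.645% of all windows. Of the 32 tested genes with it, 43.8% were higher and 12.5% lower, against 20.4% and 19.9% of genes without it. The 32 include members of the drug resistance list, and shares without them were not computed. Here too the mitochondrial counts moved with the genes.

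Of 25 iron regulon genes, 12 were higher and 4 lower, and the split ran within the iron uptake systems. The siderophore transporter genes ARN1, ARN2 and ENB1 and the reductase genes FRE2, FRE3, FRE5 and FRE6 were higher, with FRE5 at 19.1 and 30.8 CPM against 95.8 CPM (1.97 ± 0.25, adjusted p = 0.000442). The high-affinity uptake genes FET3 and FTR1, the reductase gene FRE1 and the copper chaperone gene ATX1 were lower, with FET3 at 496 and 602 CPM against 192 CPM (-1.51 ± 0.35, adjusted p = 0.00659). Of 24 cell wall and filamentous growth genes, 12 were higher and 2 lower. They include the wall protein gene PIR3, at 4.98 and 6.15 CPM against 32.5 CPM (2.55 ± 0.43, adjusted p = 0.00139), and FKS1, the glucan synthase gene, was lower, at 7060 and 5870 CPM against 3390 CPM. FKS1 did not pass without ceg1-AA replicate 1 (adjusted p = 0.0509), nor ATX1 without replicate 2 (0.0639).

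Meiosis and sporulation genes, which are kept silent in haploid cells on glucose, were higher in 9 of 21 and lower in 1, with medians of 1.14 and 0.94. Beside IME2 they include IME4, whose counts cannot be told apart from those of its antisense gene RME2, at 37.3 and 40.0 CPM against 124 CPM (1.69 ± 0.19, adjusted p = 0.000322), the meiotic regulator gene NDT80, at 34.8 and 51.3 CPM against 111 CPM, and the meiotic axis genes HOP1 and RED1. CRR1, a gene for a spore wall protein, was lower, at 53.9 and 52.3 CPM against 5.72 CPM (-3.20 ± 0.37, adjusted p = 0.000326). Genes specific to a cells were also higher in 3 of 4 tested, although the labels give MATalpha. STE2, the receptor for alpha factor, was at 9.12 and 14.4 CPM in ceg1-AA and 57.5 CPM in xrn1D (2.32 ± 0.33, adjusted p = 0.000653), STE6 rose by 1.39 ± 0.27 (adjusted p = 0.0027) and BAR1 by 1.41 ± 0.36 (adjusted p = 0.0109). The a-factor genes MFA1 and MFA2 were listed at 0 in all 3 libraries, and AGA2 had at most 1 count. Of the 5 alpha-specific genes tested, MF(ALPHA)2 was lower, at 49.8 and 41.0 CPM against 8.43 CPM, and STE3, SAG1, MF(ALPHA)1 and AFB1 did not pass the threshold. MATALPHA1 and MATALPHA2, which have a silent copy, were listed at 0.

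Stress genes gave no stable answer. Of 45 genes under the stress factors Msn2 and Msn4, 6 were higher and 1 was lower. Their median ratio was 1.34 against ceg1-AA replicate 1 and -0.26 against replicate 2. Without replicate 1 of ceg1-AA DMSO, 3 were higher and 17 lower, and without replicate 2, 31 were higher and none lower. Their summed level was 3900 and 15500 CPM in the ceg1-AA libraries and 8890 CPM in xrn1D, between the 2. HSP30, a stress-induced membrane protein gene, was at 14.1 and 658 CPM in ceg1-AA and at 70.2 CPM in xrn1D, and TMA10, YER067C-A, EGO4 and RGI1 likewise lay between the ceg1-AA libraries. The largest gaps in the other direction, replicate 1 higher, were those of PLM2, CWC25, GIT1, MED8 and NRK1, of which MED8 was at 28.2 and 11.3 CPM. The 26 genes of sulphate assimilation and methionine also differed with the ceg1-AA library. Of these, 10 were lower and 1 higher, with medians of -0.28 and -1.26, and 18 were lower without replicate 1 and 8 without replicate 2. MET17, which overlaps YLR302C on the opposite strand, was at 893 and 1830 CPM against 290 CPM.

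**Figure D4:**
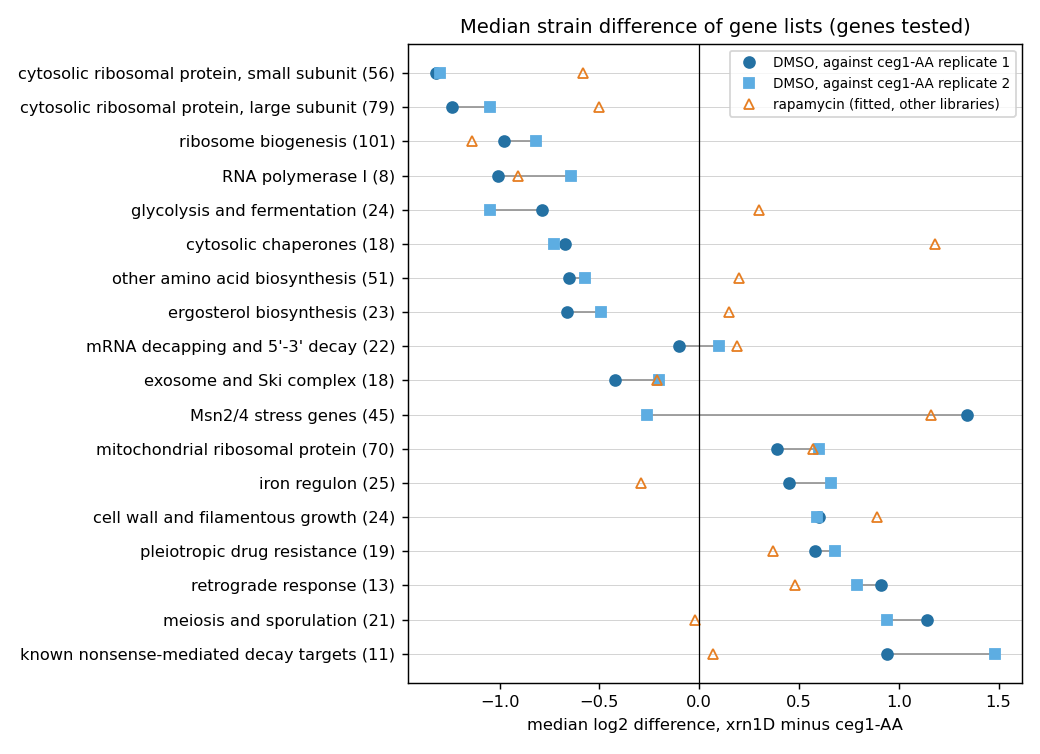
Median log2 difference between xrn1D and ceg1-AA for 18 gene lists, with the number of genes tested. Circles and squares are the DMSO ratios against ceg1-AA replicates 1 and 2, joined by a line, and triangles are fitted medians from the rapamycin libraries; the stress genes have the longest line, from -0.26 to 1.34.

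The other lists are given beside the 19.7% of all genes called in each direction. The zinc, purine and spliced counts lie near that share, and those of frames without an entry lie below it. Of 12 hexose transporter genes, 4 were higher and 2 lower, with 7 higher without ceg1-AA replicate 2. HXT4 was at 250 and 1230 CPM in ceg1-AA and 129 CPM in xrn1D. Of 20 antioxidant genes, 3 were higher and 8 lower; the thioredoxin peroxidase gene TSA1 was at 1090 and 1090 CPM against 458 CPM. Of 39 nuclear genes for the respiratory chain and ATP synthase, 5 were higher and 7 lower, with 4 lower without ceg1-AA replicate 1 and 14 without replicate 2. Of 13 genes of the tricarboxylic acid cycle, 4 were higher and 3 lower (2 lower without replicate 1, 5 without replicate 2). Of 32 genes under nitrogen catabolite repression, 9 were higher and 4 lower (7 lower without replicate 1), and PUT1, the proline oxidase gene, was at 54.7 and 36.9 CPM against 224 CPM (2.27 ± 0.30, adjusted p = 0.000479). Of 18 phosphate regulon genes 7 were lower and 1 higher, of 15 zinc regulon genes 3 were higher and 2 lower (4 higher and 4 lower without replicate 2), of 24 hypoxic and heme genes 4 were higher and 8 lower, and of 16 purine genes 3 were higher and 3 lower (5 lower without replicate 1). Arginine genes were higher in 4 of 13 and lower in none. Of 11 histone genes 3 were lower (6 without replicate 2), of 13 general mating genes 1 was higher and 2 lower, and of 163 spliced genes outside the ribosome 29 were higher and 38 lower. Of 371 frames without an entry in the reference, 32 were higher and 65 lower. Among marker genes ADE2 was higher, at 58.0 and 63.6 CPM against 244 CPM, and URA3 and TRP1 were lower, by fitted differences of -1.13 and -0.96.

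Small counts in several lists depended on which ceg1-AA DMSO library was used. Without replicate 1, 2 glycolysis and 3 amino acid genes were higher, and without replicate 2, 3 and 4 were. Without replicate 2, 3 sulphate genes were higher, and no ribosome biogenesis, exosome, ergosterol or small-subunit gene was. Large-subunit genes then had 1 higher member. Without replicate 1, 3 mitochondrial ribosomal genes were lower, 2 small-subunit, 2 phosphate and 2 mating genes were higher, 1 histone gene was higher and 2 were lower, and 1 retrograde and 1 arginine gene was lower. In each of these fits 1 drug resistance gene was lower.

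Other upstream elements were counted in the same windows. The Gcn4 element TGACTC stood upstream of 66.7% of the 51 amino acid genes and 12.9% of all windows, and of the 717 tested genes with it 179 were higher and 142 lower, against 19.8% in each direction among genes without it. The stress response element AGGGG stood upstream of 93.5% of the stress genes and 34.4% of all windows, with 21.1% higher and 18.2% lower, against 20.2% and 20.7% among genes without it. The Aft1 core TGCACCC stood upstream of 74.1% of the iron regulon and 2.36% of all windows, with 25.4% higher and 17.5% lower, against 20.4% and 19.9%. For CACGTG, the Pho4 element, the tested genes were 18.8% higher and 24.6% lower, against 20.6% and 19.5%. For GATAAG they were 21.6% and 18.3%, against 20.2% and 20.3%, and for the Ume6 element GGCGGC 21.1% and 17.2%, against 20.4% and 20.1%.

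The strains were also compared under rapamycin, with Ceg1 drawn from the nucleus in both. The DMSO and rapamycin differences are taken between separate libraries, but both sets of calls come from the 7-library fit with its shared filter, scaling and spread, so they are not independent. There 1275 genes were higher (21.8%) and 1285 lower (21.9%) in xrn1D. Of the 1156 genes higher in DMSO, 507 were also higher under rapamycin (43.9% of these and 39.8% of those higher under rapamycin) and 45 were lower. Of the 1152 lower in DMSO, 562 were also lower (48.8% and 43.7%) and 113 were higher. The ribosome biogenesis genes were lower in both, in 76 of 101, against 562 of all 5856 genes. The mitochondrial ribosomal genes were higher in both, in 22 of 70, against 507 of all 5856. NCE103 was at 54.7 and 49.1 CPM in ceg1-AA under rapamycin and at 707 and 244 CPM in xrn1D. EDC1, MDH2 and DHH1 were likewise higher, with DHH1 at 64.3 and 51.1 CPM against 439 and 501 CPM.

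The strain difference itself differed between the treatments for 1279 genes (21.8%), 567 of them with a higher signed value in DMSO and 712 with a lower one. For several of the largest DMSO rises, ceg1-AA under rapamycin stood near the xrn1D level. IME2 was at 8.29 and 10.3 CPM in ceg1-AA in DMSO, and under rapamycin at 48.0 and 50.1 CPM in ceg1-AA and 51.6 and 52.6 CPM in xrn1D, so its strain difference was 2.72 in DMSO and 0.09 under rapamycin (difference 2.63, adjusted p = 0.00143). RPL22B showed the same order, with 52.2 and 42.0 CPM in ceg1-AA in DMSO and 239 and 177 CPM under rapamycin (difference 2.43, adjusted p = 0.00139). EST2 was higher in xrn1D in DMSO and lower under rapamycin (1.62 and -0.63, difference 2.24, adjusted p = 0.0017). IME2 and RPL22B were chosen for a large DMSO difference, which in itself favours a smaller value under rapamycin. By list, the difference between treatments was called for 10 of 21 meiosis genes and 6 of 11 decay targets, all with a higher value in DMSO, and for 11 of 25 iron genes, 10 of them higher in DMSO.

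Chaperone, glycolysis and amino acid genes went the other way. Of 18 chaperone genes, 15 differed between treatments, 14 with a lower signed value in DMSO; their median strain difference was -0.73 in DMSO and 1.18 under rapamycin. SSB1 was at 1800 and 1850 CPM in ceg1-AA under rapamycin and at 1640 and 2430 CPM in xrn1D, against the 9980 and 8620 CPM of ceg1-AA in DMSO. Of 24 glycolysis genes 15 differed, 14 with a lower value in DMSO, and of 51 amino acid genes 21 did, 20 with a lower value. For ribosomal proteins the signed strain difference was lower in DMSO than under rapamycin for 28 of 79 large-subunit and 23 of 56 small-subunit genes, with fitted medians of -1.17 and -1.28 in DMSO and -0.50 and -0.58 under rapamycin.

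**Figure D5:**
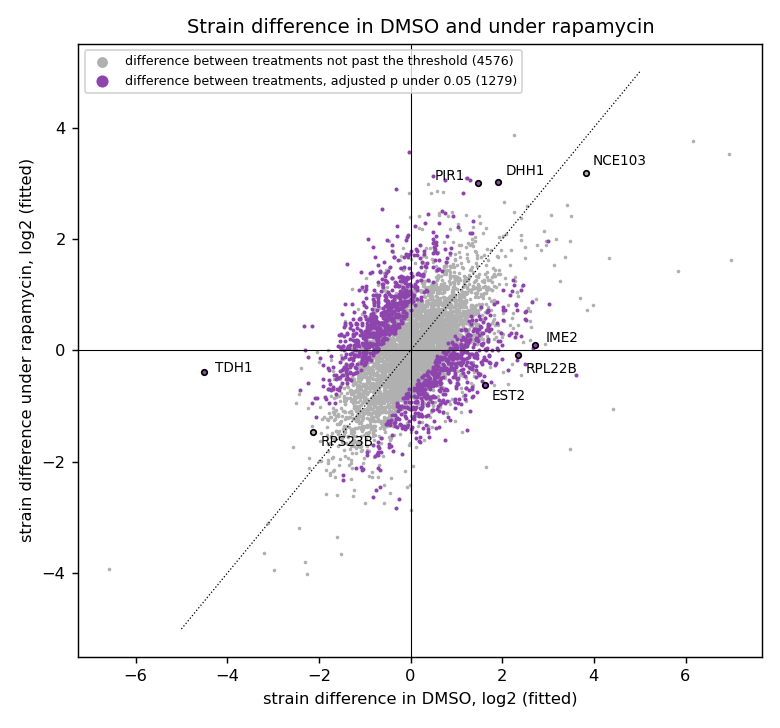
Fitted strain difference (log2, xrn1D minus ceg1-AA) of each tested gene except XRN1 in DMSO (x axis) and under rapamycin (y axis), with the dotted line at equal values. Purple genes differ between treatments (adjusted p under 0.05); IME2 and RPL22B lie far to the right near 0 on the y axis, and NCE103 lies near the line.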

How the data were processed

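Total RNA, obtained by acid phenol/chloroform extraction, was sequenced after an NEB Ultra II RNA preparation, per the labels' protocols. No directional kit is named, so overlapping genes on either strand cannot be told apart. Reads were handled with FastQC 0.11.5, HISAT2 2.1.1, SAMtools 1.15.1 and DESeq2 on R64/sacCer3, per the submitters' processing notes, which give no order or settings. The deposited files hold whole read counts per reading frame, which were tested, and TPM values made by the authors, which served as an alternative.

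Counts of 7 libraries in 4 groups were fitted with edgeR 4.0.16 (R 4.3.3) by the quasi-likelihood test after filterByExpr and TMM scaling on nuclear frames, with Benjamini-Hochberg adjustment over 5856 genes. Per-pair ratios are log2 CPM with a prior count of 2. Total counts set the precision, with 1 count worth 0.829, 1.03 and 0.301 CPM in the ceg1-AA DMSO libraries and the xrn1D library. The floor for a count of 0 is 3 counts per library and covers counting error only. The interaction term tests the strain difference in DMSO minus that under rapamycin. The filter, the scaling and the edgeR test of the DMSO strain difference were tried on simulated counts with known changes. The other steps were not. Apart from the changed genes, all simulated libraries shared their means and their spread. The simulation therefore cannot test whether the lone xrn1D library varied like the others. Of the listed frames 5917 matched a name in the R64 reference, and 9 motifs were searched with Python 3.11.15 in 500 bases before each start codon.

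Genes named by rule were the 12 largest rises and falls at least 2-fold in both pairs with a mean count of at least 50, the extremes and the most abundant member of each list, the genotype genes, and the 5 widest gaps each way between the ceg1-AA DMSO libraries. Other genes named were chosen after their values were seen. The members and lists were chosen with earlier results of these data known. Alternatives were another normalization, total counts, no filter or a stricter one, DESeq2 1.42.0, limma 3.58.1 on log2(TPM + 1), the DMSO libraries alone, a replicate block and each replicate left out. The replicate alternatives for the interaction and for the rapamycin comparison were chosen after seeing the data.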

Additional observations from a re-analysis of the deposited data

Results flagged for a closer look

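Among the 133 genes named by rule, the strain difference in DMSO differed from that under rapamycin in edgeR's interaction test for 41, against 21.8% of all genes. Many of the 133 were chosen for a large DMSO difference, which in itself favours a difference between treatments, so the list is a description. The 41 genes follow, with the log2 difference between the treatments. The signed value was higher in DMSO for IME2 (2.63), RPL22B (2.43), YPR078C (1.82), HIS3 (1.8), CTA1 (1.7), ZRT2 (1.4), TEN1 (1.33), CLB6 (1.29), ISU1 (1.08), YOR062C (1.03), ADE2 (0.93), PDR3 (0.92), MKS1 (0.87) and CPA1 (0.76). These include the meiotic gene IME2, the cyclin gene CLB6 and the telomere gene TEN1. The signed value was lower in DMSO for TDH1 (-4.13), MXR1 (-2.57), OLE1 (-2.25), MET17 (-2.12), TDH3 (-1.83), TSA1 (-1.81), TPM1 (-1.71), SSB1 (-1.7), RNR2 (-1.64), MET6 (-1.58), LEU1 (-1.52), GDH1 (-1.39), LPD1 (-1.32), ADE12 (-1.27), MF(ALPHA)1 (-1.25), VMA10 (-1.25), YCR013C (-1.25), ERG6 (-1.23), FPR3 (-1.18), SBP1 (-1.18), ERG11 (-1.04), FKS1 (-1), RPS14B (-1), RPL35B (-0.87), PAB1 (-0.87), HTA2 (-0.87) and TIF4632 (-0.72). These include genes of glycolysis, amino acid, sterol and fatty acid synthesis, chaperones and translation.

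For TDH1 and MET17 the ceg1-AA DMSO libraries lay far apart, at 541 and 4570 CPM and at 893 and 1830 CPM, and the part of that gap in the difference between treatments was not tested.

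Mitochondrial frames were outside the tests. While 16 of 20 such frames were at the floor in xrn1D, SCEI was at 449 and 361 CPM in the ceg1-AA DMSO libraries and 728 CPM in the xrn1D library, 1.80 times their mean. Q0182 was at 58.9 and 27.7 CPM against 447 CPM, 10.3 times. OLI1, a subunit of the ATP synthase, was at 0.485 times the ceg1-AA mean.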

How the results depend on the processing

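The counts of genes higher and lower in DMSO, 1156 and 1152, became 2635 and 437 with total nuclear counts alone, 3268 and 261 with limma on log2(TPM + 1), and 582 and 1017 with DESeq2's Wald test. Leaving out each library gave 960 to 1262 higher and 1033 to 1234 lower genes, and the DMSO libraries alone gave 780 and 986. Genes at least 2-fold apart in both pairs became 1240 higher and 84 lower with total counts, and at 4-fold 46 and 15. Against a single ceg1-AA library they ranged from 733 to 861 higher and from 551 to 573 lower. Genes whose signed strain difference was higher in DMSO than under rapamycin numbered 230 with DESeq2 and from 226 to 733 with a library left out, and those with a lower one from 340 to 883; without ceg1-AA rapamycin replicate 2 they were 226 and 340. Under rapamycin, 1275 higher and 1285 lower genes became 743 to 874 and 834 to 923 with a rapamycin library left out. Against a single ceg1-AA library only 1 ratio has to pass in place of both, which by itself favours a larger count. The scaling's shift of the median gene is given above, and a stricter fold lowers the count by rule. The cause of the other shifts was not tested.

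Of the gene lists, 13 had medians of at least 0.5 in size and 1 sign. With a ceg1-AA library left out 16 to 18 did, but there only 1 median per list had to pass. With log2(TPM + 1) 23 did, where the median of all genes was 0.86 and 0.85. On that scale the medians of RNA polymerase I, chaperones and other amino acid biosynthesis turned to 0.09, 0.14 and 0.21, all below the median of all genes. Among the named genes, the direction depended on the ceg1-AA DMSO library for some, none of which passed the threshold with both libraries. Without replicate 1 and without replicate 2, the difference was -0.79 and 3.69 for RGI1, 0.62 and -0.68 for GIT1, -3.23 and 2.31 for HSP30, -1.16 and 3.64 for YER067C-A, -3.03 and 1.39 for EGO4, -0.41 and 4.08 for TMA10, 0.57 and -0.80 for CWC25, 0.31 and -0.93 for NRK1, 0.21 and -0.46 for HXT3, 0.35 and -0.22 for PHO84, 0.01 and -0.19 for MRP7, 0.04 and -0.12 for CEG1, and 0.31 and -0.05 for RPL13A. With total counts alone, the sign turned for YER067C-A (0.39), CWC25 (0.21), GIT1 (0.34), NRK1 (0.05), HXT3 (0.36), HHT2 (0.05), MF(ALPHA)1 (0.24), RPL3 (0.10), MRP7 (0.42), CEG1 (0.48) and TOR1 (0.36), all below the shift of the median gene. PHO84 turned to -0.03 with DESeq2's size factors and with its Wald test and to -0.07 with the replicate block, where YER067C-A turned to 0.42. In 104 combinations of a named gene and a setting, a gene past the threshold dropped below it. Over all genes, 63 were called in the opposite direction with limma on log2(TPM + 1), where 1479 calls were shared in all, and none was under the other alternatives.

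The labels do not say whether a replicate number marks a shared culture or day. Deviations of the same number in different groups correlated at 0.127, -0.149 and -0.0281, which cannot settle it. With the replicate block the counts were 968 higher and 977 lower in DMSO, 395 and 539 for the difference between treatments, and 1208 and 1219 under rapamycin. The xrn1D DMSO group rests on 1 library, so a deviation of that library cannot be told apart from the effect of the strain.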
